A study of Homo sapiens with 9 samples.

Results

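The genes described here code for the proteins of the U11/U12 particle, the part of the minor spliceosome that first reads an intron of the U12 type. They were taken as the probe sets annotated to exactly 1 symbol among PDCD7, SNRNP25, SNRNP35, SNRNP48, RNPC3, ZMAT5 and ZCRB1. That gave 15 of 49293 tested probe sets, for 7 of 18132 genes, and all 7 genes had at least 1. PDCD7 lies at chr15:65117379-65133808 (GRCh38.p14), SNRNP48 on chromosome 6, RNPC3 on 1, SNRNP25 on 16, ZMAT5 on 22, and SNRNP35 and ZCRB1 on 12. PDCD7 was chosen by its values on the conjugate arrays, where its fall was among the deepest seen, and its 6 partners for belonging to the same particle. The fall of PDCD7 on the conjugate arrays is therefore given as a description, without a test.

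The arrays were of Y79, an established human retinoblastoma line of photoreceptor lineage (some labels write Y97), grown in RPMI medium. There were 3 groups of 3 arrays. The cells of the GNPs-HDM2 group had received gold nanoparticles with an HDM2 peptide attached, those of the GNPs group the bare gold particles, and those of the Control group neither. The question of the design was what the peptide conjugate does to the cells beyond the particle alone. Nothing read here gives the dose, the duration or the culture behind each array. A p-value below therefore weighs a difference only against the spread among arrays, pooled over the 3 groups, and that spread may be technical.

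Most introns are removed by the major spliceosome, and a small class with its own splice site sequences is removed by the minor one. There the U11 and U12 RNAs act together as one particle that recognises the 5′ splice site and the branch point, and 7 proteins are found in it and not in the U1 and U2 particles of the major pathway. SNRNP48 contacts the 5′ splice site, SNRNP35 is the counterpart of the major pathway's SNRNP70, and PDCD7 and RNPC3 bind each other and so bridge U11 and U12. SNRNP25 belongs to the U11 side, and ZMAT5 and ZCRB1 are zinc finger proteins of the joined particle. The joined particle also holds the SF3b complex and the Sm ring, both shared with the major spliceosome.

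Each value was a log2 number set against the probe set's own baseline, so it carries no absolute level, and levels of different genes cannot be compared. The range in which the baseline lay was inferred from the last stored digit of the numbers, taken as log2. By this inference 8314 probe sets were classed as bright (log2 level 8 to 16), 24579 as middle (4 to 8) and 16299 as dim (2 to 4). A baseline near a limit may have been placed in the neighbouring class. Of the member probe sets 4 were bright, 9 middle and 2 dim. CRX, OTX2, NRL, RBP3 and MYCN, which mark photoreceptor lineage or retinoblastoma, each had a bright probe set, as 5 of 9 such markers did. None of 4 fibroblast, 4 pigment epithelium and 4 blood markers had one, and of 3 Mueller glia markers only GLUL did. Against Control 5 of the 9 lineage markers fell on the GNPs-HDM2 arrays and none rose (median -0.86), while 4 of 4 pigment epithelium markers (median 0.66), 3 of 4 fibroblast markers (0.59) and 4 of 4 blood markers (0.64) rose, where 25.1% of all genes were called lower and 33.1% higher. Of the Mueller glia markers 1 rose and 1 fell. With each array centred within the brightness classes, 4 of 9 lineage markers were called lower, and no Mueller glia marker was called. Called higher were 1 of 4 pigment epithelium, 2 of 4 fibroblast and 1 of 4 blood markers. In that setting 3877 of all 18132 genes were called lower and 4155 higher. Of the blood markers, PTPRC, CD3D and CD14 had only dim probe sets, while the brightest probe set of HBB was middle.

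The conjugate arrays differed from the others in ways that were not limited to single genes. Between GNPs-HDM2 and Control the median difference was -1.31 for bright, 0.15 for middle and 0.50 for dim probe sets. Spiked-in hybridization controls lay at a median of 2.06, 2.04 and 1.57 on the GNPs-HDM2 arrays, between -0.58 and 0.15 on the GNPs arrays and between -0.45 and -0.35 on the Control arrays. Other control probe sets also differed between GNPs-HDM2 and Control: poly-A controls by 1.83, 18S ribosomal RNA by -2.03 and background probe sets by 0.53. The 5′ minus 3′ difference of GAPDH, a measure of RNA integrity, was -0.61, -0.61 and -0.39 on the GNPs-HDM2 arrays and lay between -0.01 and 0.11 on the GNPs arrays and between -0.08 and 0.00 on the Control arrays. That of beta-actin did not separate GNPs-HDM2 from Control: it was -0.28, -0.27 and -0.24 on the GNPs-HDM2 arrays, between 0.04 and 0.30 on the GNPs arrays, and 0.00, -0.48 and -0.01 on the Control arrays. The part of these shifts, and of those of the markers, in the results below was not tested, but each member is set beside the median of its own brightness class. The spread within a group was also unequal, with a median SD over probe sets of 0.47 for GNPs-HDM2, 0.12 for GNPs and 0.18 for Control.

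PDCD7 held the lowest difference of all 18132 genes between GNPs-HDM2 and Control. Its value was -4.24, -6.00 and -2.88 on the GNPs-HDM2 arrays, 0.03, 0.11 and 0.00 on the GNPs arrays, and 0.17, -0.07 and -0.01 on the Control arrays. All 3 conjugate arrays lay far below every other array, and conjugate replicate 3 was the mildest of them. The log2 difference was -4.40 with a standard error of 0.59 against Control, or 21.1-fold lower, and -4.42 with the same error against GNPs (n = 3 arrays per group). The GNPs arrays differed from Control by 0.02 (95% interval -1.30 to 1.34, limma adjusted p = 0.996), and their values overlapped. The interval and p use the spread pooled over the 3 groups. For PDCD7 that spread came mostly from the conjugate arrays (SD 1.57, against 0.055 for GNPs and 0.124 for Control). The interval and p therefore say little about whether bare particles shifted PDCD7.

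The fall of PDCD7 rests on 1 bright probe set, 11736446_x_at, of a type whose probes may also match other transcripts. Only 1 of the 8314 bright probe sets fell further against Control, in a class whose median was -1.31. Centring each array within the 3 brightness classes left -3.13 with an error of 0.32 for PDCD7, and quantile normalization left -3.66. In RNA from a whole culture, fewer cells that express a gene and less RNA per cell cannot be told apart.

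**Figure D1:**
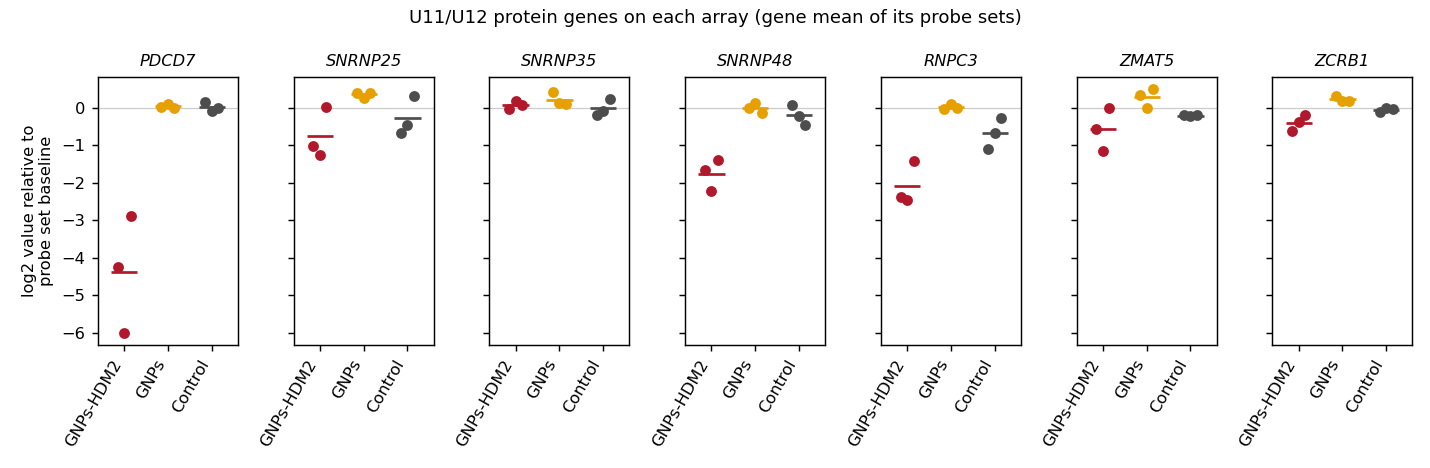
Log2 value relative to the probe set baseline (y axis) on each array for the 7 genes of the U11/U12 particle, each the mean of its probe sets; points are arrays, horizontal bars are group means (n = 3). The GNPs-HDM2 arrays lie below all others for PDCD7, SNRNP48, RNPC3 and ZCRB1, and the groups overlap for SNRNP35.

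Of the 6 partners, 2 fell against Control and none rose, where 25.1% of all genes were called lower and 33.1% higher (limma, Benjamini-Hochberg adjusted p under 0.05 over all genes). The 2 were SNRNP48 and RNPC3. That both fell less than PDCD7 was given in advance, since PDCD7 held the lowest difference of all genes. The median difference of the partners was -0.42, and that of all genes was 0.25. In 3 of 6 partners all GNPs-HDM2 values lay below all Control values, which held for 23.9% of genes.

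SNRNP48, which contacts the 5′ splice site, was at -1.65, -2.23 and -1.40 on the GNPs-HDM2 arrays, 0.01, 0.13 and -0.15 on the GNPs arrays, and 0.08, -0.23 and -0.45 on the Control arrays. The conjugate arrays were the 3 lowest of the 9. The log2 difference of SNRNP48 against Control was -1.56 with an error of 0.23 (2.95-fold lower, limma adjusted p = 0.00179). Its 3 probe sets all fell (-1.82, -0.96 and -1.89), and each stood below the median of its class. After level centring SNRNP48 stood at -1.19 (adjusted p = 0.00138), and after quantile normalization at -0.34 with no call (adjusted p = 0.423).

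RNPC3, which binds the U12 RNA, was at -2.37, -2.47 and -1.41 on the GNPs-HDM2 arrays, -0.02, 0.09 and -0.01 on the GNPs arrays, and -1.09, -0.67 and -0.26 on the Control arrays. Here the untreated cells lay between the other groups, and no groups overlapped. Against Control RNPC3 was 2.65-fold lower, a log2 difference of -1.41 with an error of 0.29 (limma adjusted p = 0.00526). With level centring it stood at -1.49 (adjusted p = 0.00412), while quantile normalization turned it to 0.17 with no call (adjusted p = 0.651). Of its 3 middle probe sets, 11728987_a_at and 11746457_a_at fell, the second to a difference of -1.91, and 11758354_s_at stood at -0.72 without a call.

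SNRNP35, the counterpart of SNRNP70, had probe sets with differences of opposite sign. The middle probe set 11732056_a_at was at -1.18, -2.60 and -0.26 on the GNPs-HDM2 arrays, 0.75, 0.70 and 0.40 on the GNPs arrays, and -0.48, 0.00 and 0.68 on the Control arrays, a difference of -1.41 against Control with an error of 0.51 (limma adjusted p = 0.0422). The dim probe set 11759105_x_at was at 0.82, 1.88 and 0.19 on the GNPs-HDM2 arrays, 0.27, -0.18 and 0.00 on the GNPs arrays, and -0.06, -0.09 and 0.00 on the Control arrays, a difference of 1.02 with an error of 0.36 (adjusted p = 0.04). With level centring the middle probe set kept its call (-1.50, adjusted p = 0.0424) and this dim one did not (0.53, adjusted p = 0.148). The other dim probe set stood at 0.65, beside a class median of 0.50. Both dim probe sets are annotated to the same transcript. The probes of 11759105_x_at, like those for PDCD7, may also match other transcripts. The mean of the 3 probe sets gave no difference for the gene (0.09, 95% interval -0.29 to 0.46, adjusted p = 0.662). With dim probe sets left out the gene was called lower at -1.41 (adjusted p = 0.035).

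ZCRB1 also split by probe set. Its bright probe set 11732161_at was at -2.00, -1.94 and -0.61 on the GNPs-HDM2 arrays, 0.38, 0.32 and 0.35 on the GNPs arrays, and -0.03, 0.00 and -0.01 on the Control arrays. Its difference against Control was -1.51 with an error of 0.33 (limma adjusted p = 0.00668), close to the bright class median of -1.31, and with level centring it was -0.24 with no call. The 2 middle probe sets stood at 0.25 and 0.24, and none of their conjugate values lay below a Control value. The second, 11732163_x_at, is of the type whose probes may also match other transcripts. The gene as a mean stood at -0.34 against Control (95% interval -0.69 to 0.0023, adjusted p = 0.0781). Of the alternative settings 3 called it lower, and 1 turned its sign.

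SNRNP25 and ZMAT5 had 1 probe set each and were not called against Control. SNRNP25, of the U11 side, was at -1.01, -1.25 and 0.03 on the GNPs-HDM2 arrays, 0.39, 0.28 and 0.41 on the GNPs arrays, and -0.68, -0.45 and 0.33 on the Control arrays. The conjugate and Control values overlapped, and the difference was -0.48 (95% interval -1.24 to 0.29, limma adjusted p = 0.241). Its probe set was bright, and level centring turned it to 0.79, called higher (adjusted p = 0.0176). ZMAT5, a zinc finger protein, was at -0.58, -1.15 and 0.00 on the GNPs-HDM2 arrays, 0.35, 0.00 and 0.50 on the GNPs arrays, and -0.20, -0.22 and -0.20 on the Control arrays. Its difference was -0.37 (95% interval -0.96 to 0.22, adjusted p = 0.239), with conjugate replicate 3 above all Control arrays.

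**Figure D2:**
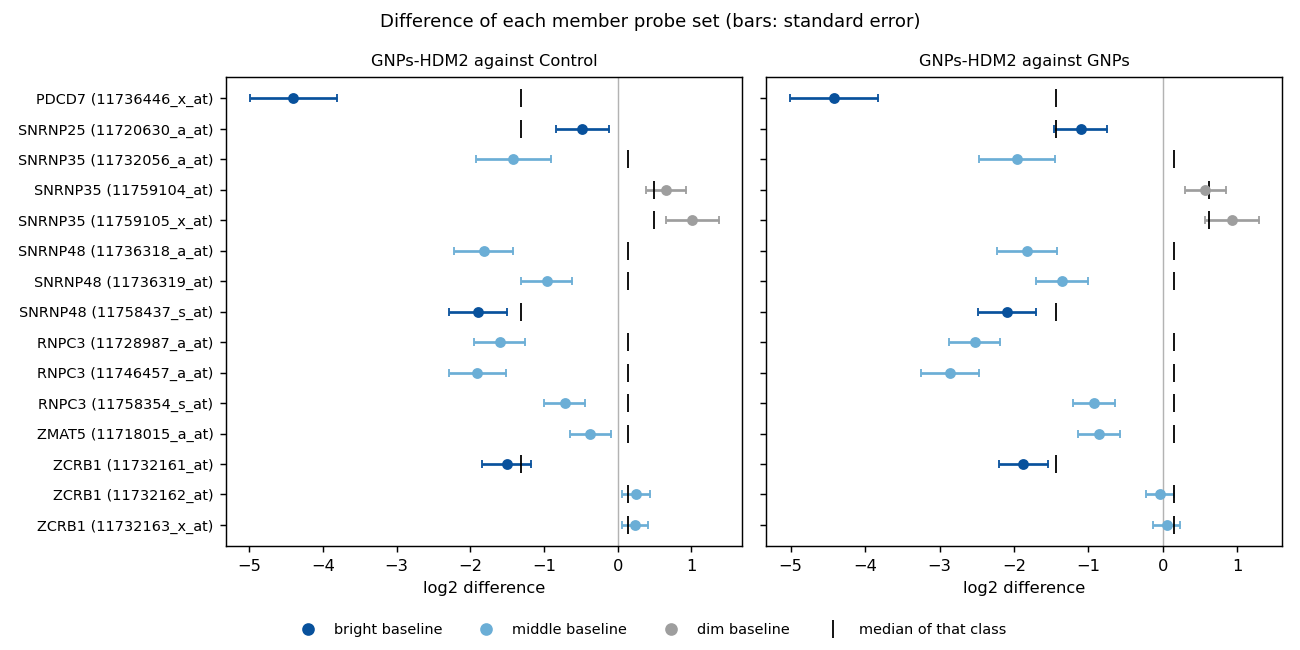
Log2 difference (x axis) of each of the 15 member probe sets, GNPs-HDM2 minus Control (left) and minus GNPs (right); points are differences, bars standard errors, colour the brightness class, and the black tick the median of all probe sets of that class. PDCD7 lies at -4.40 against a class median of -1.31, while SNRNP35 and ZCRB1 have probe sets on both sides of 0.

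By brightness class, 5 of 9 middle partner probe sets fell against Control, where 24.6% of all middle probe sets were called lower. Among bright ones 2 of 3 fell, where 66.3% of the class did. Of the 2 dim ones 1 rose, where 33.5% of the class was called higher. In all 7 of 14 partner probe sets fell and 1 rose (23.7% and 24.9% of all probe sets), and 9 of 14 lay below the median of their class. Leaving out conjugate replicate 3, the array nearest to the others, raised the count of partner genes called lower against Control to 5 of 6, all except SNRNP35. The largest limma adjusted p among those 5 was 0.0118. The count over all 18132 genes rose as well, from 4560 to 5758 called lower.

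Against bare particles the partners were called more often, in a contrast that uses the same conjugate arrays. Of 6 partners 5 fell and none rose, with SNRNP35 the exception, where 29.1% of all genes were called lower and 43.2% higher. In those 5 the conjugate values all lay below the GNPs values, which held for 30.5% of genes. The difference was -2.10 with an error of 0.29 for RNPC3 (limma adjusted p = 7.35e-04), -1.75 with an error of 0.23 for SNRNP48 (adjusted p = 6.07e-04) and -1.10 with an error of 0.34 for SNRNP25 (adjusted p = 0.0164). It was -0.86 with an error of 0.26 for ZMAT5 (adjusted p = 0.0157) and -0.62 with an error of 0.15 for ZCRB1 (adjusted p = 0.00622), while SNRNP35 stood at -0.15 (95% interval -0.53 to 0.23, adjusted p = 0.43). SNRNP25 and ZCRB1 lost the call with level centring (0.25 and -0.23, adjusted p = 0.362 and 0.162), and SNRNP35 gained one (-0.56, adjusted p = 0.0158). SNRNP25 lost it also with quantile normalization (-0.88, adjusted p = 0.0651), and ZMAT5 with weights by group (-0.86, adjusted p = 0.051). Without GNPs-HDM2 replicate 1 or 2 SNRNP25 was not called (adjusted p = 0.0618 and 0.0586), nor was ZMAT5 without GNPs replicate 3 (0.06). Among the partners only SNRNP35 has dim probe sets. With these left out it was called lower at -1.96 (limma adjusted p = 0.0065), and the other partners kept their calls. In that setting the median difference of all genes also moved down, from 0.30 as deposited to -0.23.

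At probe set level 10 of 14 fell against bare particles and 1 rose, where 28.3% and 36.3% of all probe sets were called. By class, 3 of 3 bright ones fell (73.2% of the class) and 7 of 9 middle ones (30.7% of the class), and 1 of 2 dim ones rose (51.7% of the class). RNPC3 held the deepest of these, with 11746457_a_at at -2.86 and an error of 0.38. Only 1.98% of middle probe sets lay lower.

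With bare particles against untreated cells no member was called, where 4 of 18132 genes were, all higher (0.0221%), and 0.00811% of probe sets were called higher. All 6 partners stood above 0, from 0.20 for SNRNP48 to 0.70 for RNPC3, and all 14 of their probe sets did, beside a median of -0.06 for all genes. By limma only RNPC3 had an unadjusted p under 0.05 (0.0388, adjusted p = 0.864; 95% interval 0.04 to 1.35). In RNPC3, ZMAT5 and ZCRB1 all GNPs values lay above all Control values, as in 12.4% of genes. With weights by group RNPC3 was called higher (0.70, adjusted p = 0.0369), as were 472 of all 18132 genes, while 242 were called lower. With quantile normalization RNPC3 (1.32), ZMAT5 (1.08) and ZCRB1 (0.57) were called higher, as were 1263 of all genes, while 1517 were called lower.

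**Figure D3:**
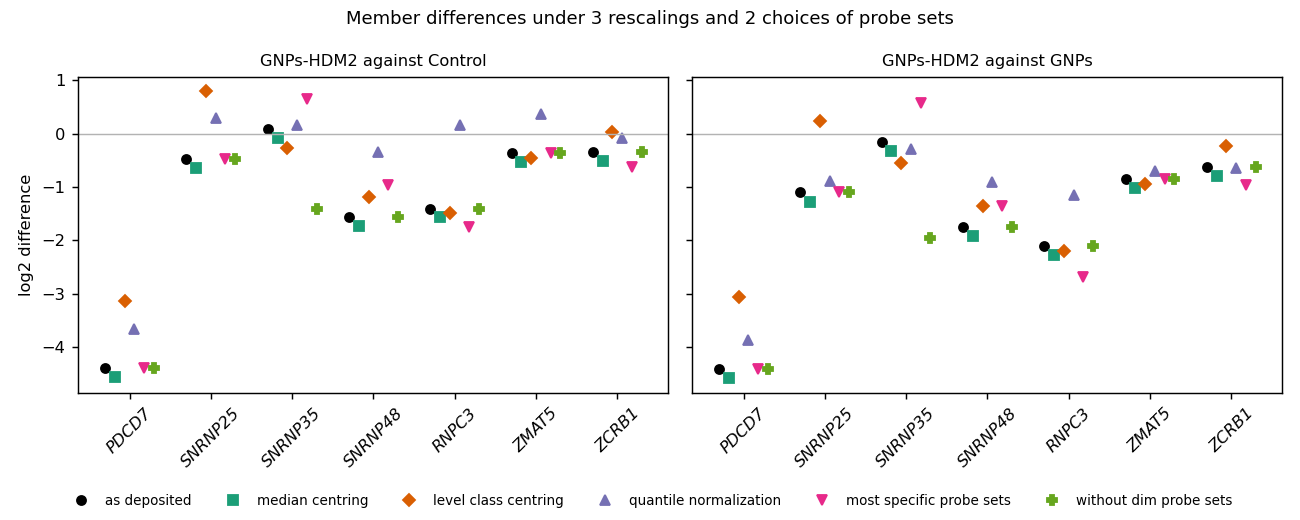
Log2 difference (y axis) of the 7 member genes against Control (left) and against GNPs (right) as deposited, under 3 rescalings and with 2 other choices of probe sets; each symbol is a setting. PDCD7 stays between -4.59 and -3.07 in both panels, and SNRNP35 ranges from -1.96 to 0.65.

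The start regions of the particle's genes are shown because PDCD7, SNRNP48 and RNPC3 fell on the same arrays, and ZCRB1 because it shares motifs with PDCD7. The sequences are from RefSeq (GRCh38.p14), 300 bases each, of which 250 lie before the annotated gene start and 50 after it, 5′ to 3′ on the strand of the gene. The table held 6 of the 7 genes. Capitals mark matches, on either strand, to any of the 6 motifs searched. One was CCGGAAG, the core read by ETS family factors. Another was GGGCGG, the GC box. The CCAAT box was searched by those letters. The TATA box was searched as TATAAA. The E-box was searched as CACGTG. The last was TGACGT, the core of the cAMP response element.
PDCD7, chr15:65133759-65134058, minus strand: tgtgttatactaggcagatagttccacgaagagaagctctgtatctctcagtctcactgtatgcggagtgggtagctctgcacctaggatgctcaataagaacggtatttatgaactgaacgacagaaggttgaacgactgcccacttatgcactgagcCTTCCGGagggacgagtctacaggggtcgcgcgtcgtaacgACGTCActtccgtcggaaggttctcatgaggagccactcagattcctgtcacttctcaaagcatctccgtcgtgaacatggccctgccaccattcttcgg
ZCRB1, chr12:42326045-42326344, minus strand: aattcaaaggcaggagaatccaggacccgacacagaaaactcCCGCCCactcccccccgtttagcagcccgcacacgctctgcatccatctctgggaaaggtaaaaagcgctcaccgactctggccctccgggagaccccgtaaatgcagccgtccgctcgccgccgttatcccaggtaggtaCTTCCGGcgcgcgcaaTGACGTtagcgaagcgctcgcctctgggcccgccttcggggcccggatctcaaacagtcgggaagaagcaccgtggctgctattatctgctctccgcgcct
SNRNP48, chr6:7589948-7590247, plus strand: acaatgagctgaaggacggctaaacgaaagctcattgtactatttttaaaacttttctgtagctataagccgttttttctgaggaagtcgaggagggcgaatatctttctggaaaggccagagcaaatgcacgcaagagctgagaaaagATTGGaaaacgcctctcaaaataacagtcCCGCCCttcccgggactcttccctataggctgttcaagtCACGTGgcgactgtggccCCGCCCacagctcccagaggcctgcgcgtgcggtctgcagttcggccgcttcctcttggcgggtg
RNPC3, chr1:103525449-103525748, plus strand: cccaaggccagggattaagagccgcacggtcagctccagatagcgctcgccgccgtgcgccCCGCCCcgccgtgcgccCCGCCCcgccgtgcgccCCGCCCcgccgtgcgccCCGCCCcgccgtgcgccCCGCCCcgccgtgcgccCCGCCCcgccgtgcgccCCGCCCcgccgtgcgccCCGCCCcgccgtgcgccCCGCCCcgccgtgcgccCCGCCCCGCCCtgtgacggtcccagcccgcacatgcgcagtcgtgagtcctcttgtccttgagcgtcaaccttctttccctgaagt

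PDCD7 and ZCRB1 each held 1 ETS core and 1 TGACGT, and no other member in the table did. Of 35116 promoters of that length, 10.3% hold the ETS core and 7.98% TGACGT. PDCD7 held none of the other motifs, while GGGCGG was in the other 5 members, beside 45% of all promoters. RNPC3 held 11 matches to it, in a tandem repeat whose last copy overlaps a further match. The RNPC3 window was 80% G and C, against 51.7% for PDCD7, 52.3% for SNRNP48 and a median of 58.7% over all promoters. TATAAA was in none of the 6, beside 11.5% of all promoters. These are matches of letters and say nothing of what binds there.

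The partners also differed in how closely their values followed those of PDCD7 over all 9 arrays. The values were not centred by group. The correlation therefore mostly restates the gap between the conjugate arrays, by which PDCD7 was chosen, and the other arrays. It does not show whether genes moved together within a group. Over the 9 arrays the Pearson correlation with PDCD7 was 0.98 for SNRNP48 and 0.91 for RNPC3. It was 0.82 for ZCRB1, 0.79 for ZMAT5, 0.73 for SNRNP25 and 0.02 for SNRNP35. Such values are common in these data: 19.4% of genes lay above 0.9, and SNRNP48 came 496th of 18131. The 5 most alike were MARCHF7 and ZBTB34 (both 0.999), AFTPH and B4GAT1 (both 0.998) and BRD3 (0.997), and none of them belongs to the particle. Their differences against Control lay between -2.31 for AFTPH and -1.37 for BRD3.

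Around the particle, most SF3b, Sm ring, tri-snRNP and SMN complex genes fell on the conjugate arrays, and other minor spliceosome factors were called in both directions. No difference between the lists was tested, and their counts stand beside 25.1% lower and 33.1% higher over all genes. Of 7 SF3b genes, which grip the branch point in both pathways, 5 fell and 1 rose against Control (median -0.90). SF3B3 stood at -0.90 with an error of 0.19 (limma adjusted p = 0.00514) and SF3B5 at -0.94, while SF3B4 rose by 0.85. Of 7 Sm ring genes 5 fell, with SNRPD1 at -1.52 and SNRPE at -1.05 (median -0.76). Of 15 genes of the tri-snRNP, the particle that brings in the catalytic RNAs, 9 fell and none rose, with PRPF4 at -2.14 and TXNL4A at -0.99 (median -0.71). Of 9 genes of the U1 and U2 particles 3 fell, among them SF3A3 (-1.98) and SF3A1 (-1.40), with a median of -0.37.

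With level centring fewer genes of each of these lists were called lower and, outside SF3b, more were called higher. The counts became 1 lower and 1 higher for SF3b, none lower and 2 higher for the Sm ring. They became 2 lower and 4 higher for the tri-snRNP, and 2 lower and 2 higher for U1 and U2. Of all 18132 genes 3877 were called lower and 4155 higher in that setting. Among the genes whose call turned from lower to higher were SNRPD2 of the Sm ring (-0.67 as deposited, 0.60 with level centring) and PRPF8, SNU13 and SNRNP27 of the tri-snRNP (-0.93, -0.71 and -0.59 as deposited, 0.34, 0.56 and 0.68 with level centring). SF3B4 (0.77), SF3B3 (-0.53), SF3A1 (-1.04), SF3A3 (-0.71) and PRPF4 (-1.32) were among the calls that remained. SNRPD1 (-0.25), SNRPE (-0.46), TXNL4A (-0.40) and SF3B5 (0.33) were not called with it.

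The SMN complex, which builds the Sm ring onto U11, U12 and the other spliceosomal RNAs, had 5 of 8 genes lower and none higher (median -0.97). GEMIN5, which recognises the RNA, stood at -1.19 with an error of 0.19 (limma adjusted p = 0.00231) and GEMIN2, which holds the ring, at -1.72 with an error of 0.30 (adjusted p = 0.00284). With level centring 5 of 8 were lower and none higher (median -0.71), beside 3877 lower and 4155 higher of all 18132 genes. GEMIN5 then stood at -0.60 (adjusted p = 0.0315) and GEMIN2 at -1.26 (adjusted p = 0.00149). The 5 were not all the same genes as before, since STRAP lost its call (-0.41, adjusted p = 0.0923) and GEMIN7 gained one (-0.82, adjusted p = 0.0165). SMN1 and SMN2 were not analysed here.

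Of 8 other factors of the minor spliceosome 2 fell and 2 rose, with a median of 0.09. CRIPT stood at -0.99 with an error of 0.18 (limma adjusted p = 0.00366) and SART3, which helps to recycle the spliceosomal RNAs, at -0.70 (adjusted p = 0.0177). CENATAC, a protein of the U4atac/U6atac particle, rose by 0.86 with an error of 0.26 (adjusted p = 0.0205), and ARMC7 by 0.61 (adjusted p = 0.0293). ZRSR2, which reads the 3′ splice site of these introns, was not called (0.21, adjusted p = 0.53). The level centred values of the 4 called genes kept their direction and their call, from -0.54 for CRIPT to 0.77 for CENATAC.

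Genes known to carry U12-type introns did not move one way. Of 20 measured, 7 rose and 4 fell, with a median of 0.11 beside 0.25 for all genes. The lower ones with the smallest p were the cell cycle regulators E2F6, at -1.84 with an error of 0.22, and E2F3, at -1.73 with an error of 0.20 (both limma adjusted p = 9.01e-04). The rises with the smallest p were those of the kinase gene MAPK11 (0.88, 1.03 and 0.73 on the GNPs-HDM2 arrays, against at most 0.02 on the Control arrays, adjusted p = 0.00181) and HPS1, of lysosome-related organelles (0.95 with an error of 0.19, adjusted p = 0.0047). Under quantile normalization the calls of SF3A1, SF3A3, GEMIN5, STRAP, MAPK11, E2F3 and E2F6 remained. Those of the other splicing list genes named here with a call as deposited did not. These arrays measure transcript level and not the retention of introns.

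**Figure D4:**
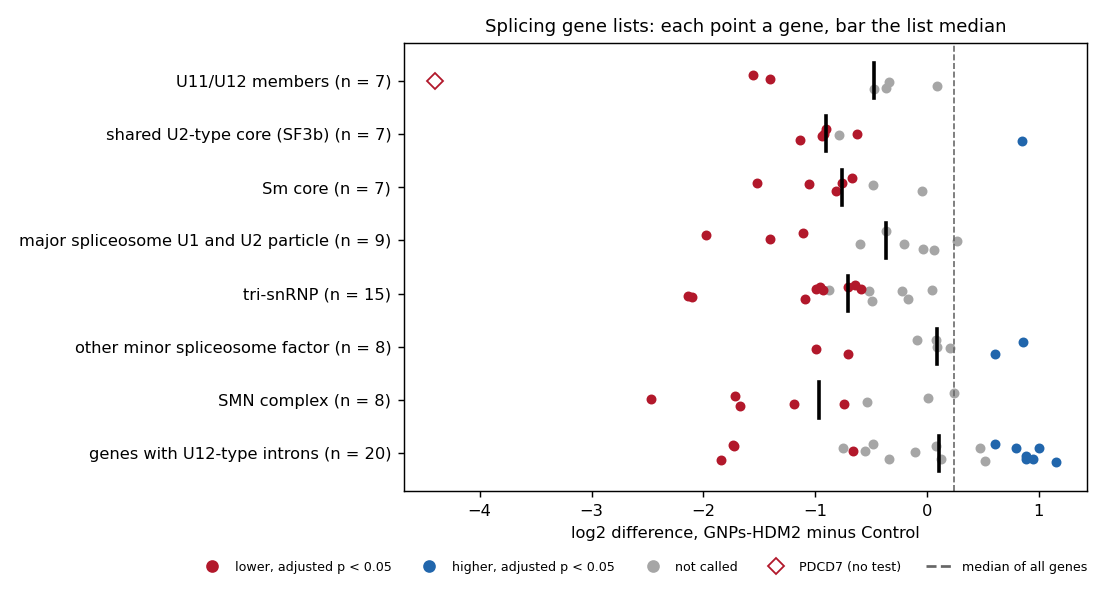
Log2 difference GNPs-HDM2 minus Control (x axis) of each measured gene of the U11/U12 members and 7 splicing lists; red and blue points were called lower and higher, grey points were not called, PDCD7 is an open diamond without a test, black bars are list medians and the dashed line is the median of all genes, 0.25. PDCD7, which was chosen for its fall, lies at -4.40.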

How the data were processed

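The deposited series table held 49395 probe sets of 9 arrays. The deposited values were read as log2 numbers from which the authors had subtracted a baseline for every probe set. That reading comes from the values themselves: 59.69% of tested probe sets were exactly 0 on 1 array or more. Their software, normalization and log base are not given in the sources used here, and every fold assumes base 2. After leaving out 102 array controls, 49293 probe sets were tested. A gene's value averaged its probe sets with 1 symbol in the platform annotation (44988 in all; 1832 had several symbols and 2473 none).

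Differences were tested with limma 3.58.1 in R 4.3.3 (lmFit and eBayes, 2-sided), all 9 arrays in one fit, adjusted by Benjamini-Hochberg over all genes or all probe sets, at 0.05. Errors are standard errors of the fit unless SD is written. Brightness classes came from the finest binary step of the stored numbers that were non-zero and above -0.5, with at least 3 such values; 101 probe sets were unclassed. The fit and the classes were tested on simulated data.

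Members and lists were chosen with earlier results of these data known. Named genes were the 7 members, up to 2 rising and 2 falling genes of each list by adjusted p, and the 5 genes most correlated with PDCD7; further genes were named after their values were seen. Lists came from general knowledge. Deviations of same-numbered GNPs-HDM2 and Control arrays correlated over genes at 0.16, 0.11 and 0.29. Those of unlike number ran from -0.25 to 0.21, and GNPs-HDM2 replicate 2 correlated more with Control replicate 1 (0.21) than with its own number. The numbers therefore settled no pairing. No pairing was used in the main fits, and a replicate block was run as an alternative. For the other 2 contrasts the lowest correlation of same-numbered arrays was -0.06. Alternatives were quantile normalization, median and level centring, each array left out, 2-group fits, a replicate block, trend and robust variance, weights by group, the most specific probe sets, and no dim probe sets. The number of arrays limits the precision.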

Additional observations from a re-analysis of the deposited data

Results flagged for a closer look

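The hybridization control probe sets, which are outside the gene comparisons, differed between groups. Their median lay 2.30 higher on GNPs-HDM2 than on Control arrays and 2.03 higher than on GNPs arrays (log2), and every conjugate array lay above every other array.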

How the results depend on the processing

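Against Control, the count of partners called lower (2) became 0 with quantile normalization. It became 3 with median centring, with the most specific probe sets and with no dim probe sets. In these settings 5054, 3894 and 4932 of all genes were called lower. The count of partners ranged from 2 to 5 with each array left out in turn (5 without GNPs-HDM2 replicate 3), and level centring added 1 called higher. Signs turned for SNRNP25 with quantile normalization (0.29) and level centring (0.79), for SNRNP35 with median centring (-0.0793), level centring (-0.27) and no dim probe sets (-1.41), for RNPC3 (0.17) and ZMAT5 (0.37) with quantile normalization, and for ZCRB1 with level centring (0.0238). Against GNPs they turned for SNRNP25 with level centring (0.25) and for SNRNP35 with the most specific probe sets (0.57). The cause was not tested. PDCD7 against Control ranged from -5.15 to -3.59 with each array left out.

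Between GNPs and Control, PDCD7 stood at -0.0613 with level centring and between -0.0313 and 0.0887 with each array left out, and partners called higher went from 0 to 3 with quantile normalization and 1 with weights by group.

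Over all genes, those higher against Control (6006) numbered 572 with quantile normalization, 3087 with 2 groups, 3111 with weights and 3466 without dim probe sets, and 3103 to 8287 with each array left out (lowest without Control replicate 3, highest without GNPs-HDM2 replicate 3), and those lower (4560) numbered 1355 with quantile normalization and 3382 to 5758 with each array left out. Higher against GNPs (7833) were 5060 with quantile normalization and 4477 without dim probe sets. Between GNPs and Control, genes higher (4) numbered 1263 with quantile normalization, 7 with level centring, 57 with 2 groups, 0 with trend and robust variance, 472 with weights and 2 to 13 with each array left out, and genes lower (0 by limma, 373 at an unadjusted p under 0.05) numbered 1517 with quantile normalization, 4 with 2 groups, 242 with weights and 0 to 2 with each array left out. Pairing by number, as a replicate block, gave 2 partners lower against Control, where 5817 of all genes were called higher and 4626 lower. It changed no call of a member.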
